A study of Ogataea parapolymorpha DL-1 with 4 samples.

Results

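Complex I (NADH:ubiquinone oxidoreductase) and the single-protein NADH dehydrogenases of the yeast Ogataea parapolymorpha were followed here through 25 genes. They are all rows of the expression table whose product description names both NADH and ubiquinone, 25 of 5448 rows. They comprise 7 core subunits and 12 accessory subunits of complex I, 4 complex I assembly factors and 2 alternative NADH dehydrogenases. The 25 rows lie on all 7 chromosomes (I to VII), with 5 on VII and 2 to 4 on each of the others. The minimum mean of 1 FPKM left out none of them, since the lowest, ndufaf5, averaged 19.7 FPKM. Names and descriptions come from the table, which takes them from similar proteins of other species.

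The strain background was DL-1. The wild type carried leu2 with LEU2 returned, and the mutant was leu2 met4::LEU2, so both strains were leu2 cells with a LEU2 gene. Cells were started in YPD at an OD600 of 0.1, collected at 0.3 and held for 2 h in B medium, which is limited in sulfur, or in B medium with 0.5 mM cysteine. Each of the 4 combinations was sequenced as 1 library, so no test was made, and no difference below has a replicate behind it. Values are the authors' FPKM (sequenced fragments relative to transcript length and library size), which do not show the sequencing depth. Levels of short and long genes are not fully comparable here, since the share held by short genes differed between the libraries, as given below.

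Complex I is the largest enzyme of the respiratory chain. It passes electrons from NADH through a flavin and a row of iron-sulfur clusters to ubiquinone, and it couples this to the pumping of protons across the inner mitochondrial membrane. Its core subunits carry the flavin, the clusters and the ubiquinone site, its accessory subunits surround the core, and assembly factors modify or insert parts without staying in the enzyme. Budding yeast has no complex I and oxidises NADH with single-protein dehydrogenases that pump no protons. Many other yeasts hold both systems. The core subunits of the membrane arm are known in most species to be encoded by mitochondrial DNA and are not analysed here.

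The zip1 row (HPODL_03459), described as a factor named after the Met4-like protein of fission yeast, had 485 FPKM in wild-type cells in B medium and 202 with cysteine, and its value was 0 in each mutant library. The adjoining row HPODL_05198 was also at 0 in each, so the strain comparisons are between strains that differ at both rows. LEU2 had 403 FPKM in B medium against 396 with cysteine in wild-type cells, and 696 against 810.5 in mutant cells. The libraries differed in how much of the summed FPKM fell on short genes. Genes under 400 bases held 56.2% of it in wild-type cells in B medium, 48.2% in wild-type cells given cysteine, 24.5% in mutant cells in B medium and 19.4% in mutant cells given cysteine. Of the 25 genes, 4 were under 400 bases and 12 under 600 bases, and their strain differences are given beside those of all genes of like length.

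The wild-type library in B medium held the highest value of all 25 genes, against 41.4% of the 5342 genes that averaged 1 FPKM or more. With median-of-ratios, upper-quartile or long-gene scaling it was 23 of 25, against 31.8%, 33.4% and 35.5% of all genes, the exceptions being both assembly factor 7 rows. With TPM scaling it was 16 of 25, against 12.6% of all genes. In the wild type 21 of the 25 genes were at least 2-fold higher in B medium than with cysteine, against 23.6% of all genes. In the mutant 1 was, against 13.3% of all genes. That gene was also higher in the wild type, and 6.65% of all genes were higher in both strains. With TPM scaling the counts in the wild type and the mutant were 18 and 1, against 14.1% and 11.5% of all genes. The 19 subunits had a median of 810.25 FPKM in B medium against 123 with cysteine in wild-type cells, and of 162 against 177 in mutant cells.

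**Figure D1:**
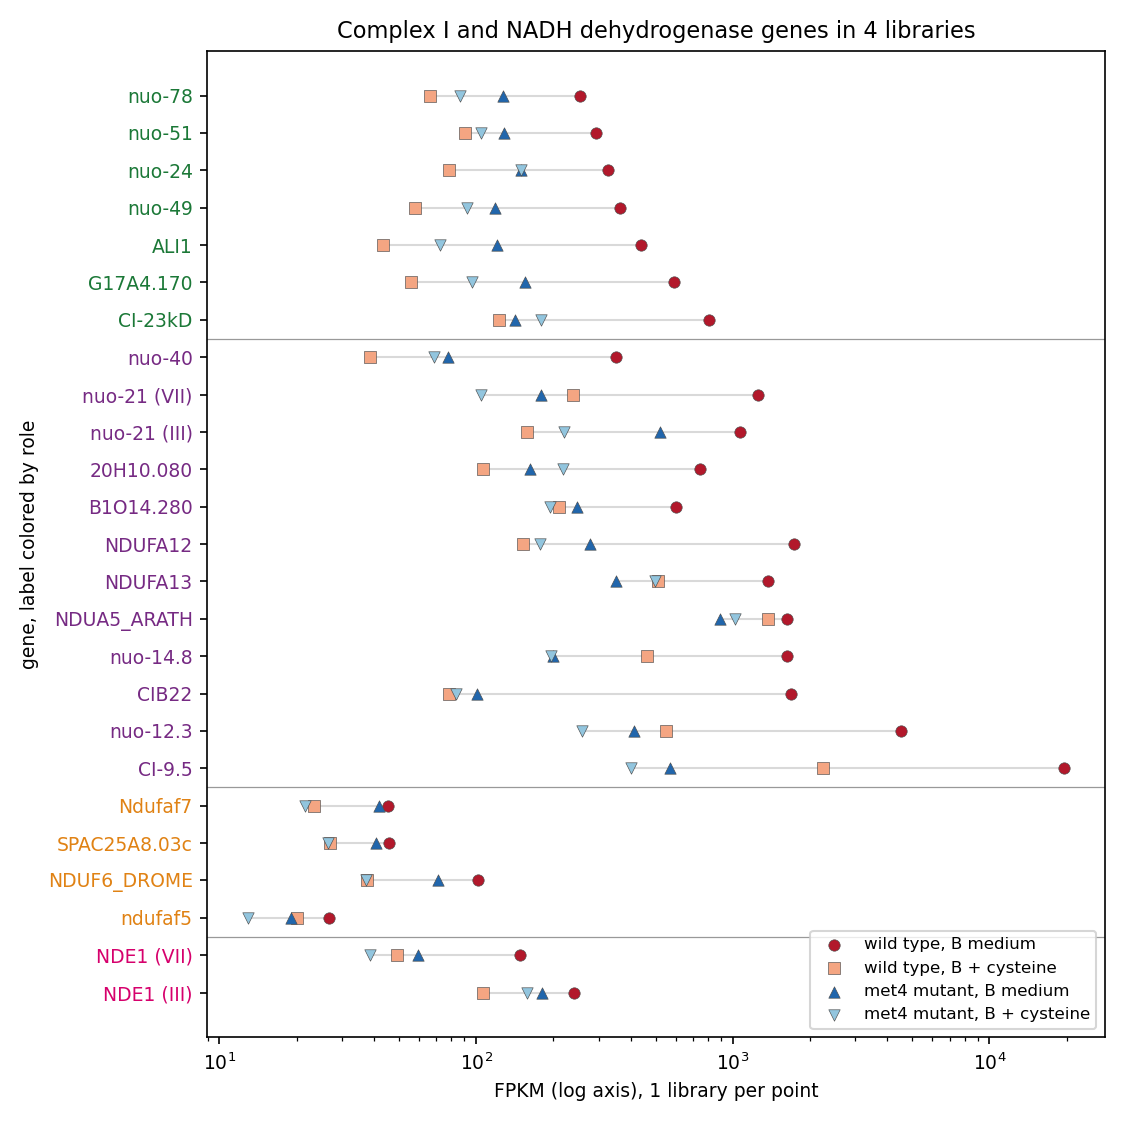
FPKM of the 25 genes on a log axis, with 1 point per library and gene labels colored by role (green core, purple accessory, orange assembly factor, pink alternative dehydrogenase). The wild-type library in B medium is the rightmost point in all 25 rows. It is well apart for most subunits, as for CIB22 (1684 against 101 FPKM in the next library), and close to the mutant library in B medium for the assembly factor Ndufaf7 (45.3 and 41.7 FPKM).

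The comparison of the media asks how the genes stand when sulfur is limited and when cells have cysteine. All 7 core subunits were 2-fold or more higher in B medium in wild-type cells, and none of them in mutant cells. Differences are of log2(FPKM + 1), B medium minus B medium with cysteine, and a difference of 1 is 2-fold. Over all genes compared, 23.6% were higher by 2-fold or more in wild-type cells and 13% lower, and the shares were 13.3% and 12.1% in mutant cells. The median difference of all genes was 0.19 in the wild type and 0.04 in the mutant. In the wild type, 36.3% of the other genes under 400 bases were at least 2-fold higher, against 21.4% of those of 1200 bases or more. With the trend over gene length taken out, as described below, 20 of the 25 genes were at least 2-fold higher there, against 19.4% of all genes. Their median was then 1.87, and 2.06 as deposited.

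The core subunits nuo-78, nuo-51 and nuo-24 form the module that binds NADH. The row nuo-51 (HPODL_04625, chromosome II, 171646 to 173112), the flavin-binding subunit, had 294 FPKM in B medium against 90.8 with cysteine in wild-type cells, and 128 against 104 in mutant cells. The wild-type library in B medium was the high one, and the other 3 lay close together, differences of 1.68 in the wild type and 0.30 in the mutant. The iron-sulfur subunit nuo-78 (HPODL_03689), at 2208 bases the longest of the 25 genes, had 253 FPKM against 65.9 in wild-type cells, and 127 against 86.4 in mutant cells. Its highest and its lowest value were both from wild-type cells (1.93 and 0.55). The iron-sulfur subunit nuo-24 (HPODL_01287) had 328 FPKM in B medium against 78.1 with cysteine in wild-type cells, and 149.6 against 149.7 in mutant cells. Its media difference was 2.06 in the wild type, and its mutant levels were nearly equal.

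The other 4 core subunits lead to the ubiquinone site, and their wild-type differences were 2.64 to 3.38, above the 1.68 to 2.06 of the NADH-binding module. The 49 kDa subunit nuo-49 (HPODL_01297), which helps form the ubiquinone pocket, had 364 FPKM in B medium against 57.6 with cysteine in wild-type cells, and 118 against 92.3 in mutant cells. ALI1 (HPODL_03393), the 30.4 kDa subunit, had 441 FPKM in B medium against 43.5 with cysteine in wild-type cells, and 121 against 72.2 in mutant cells. G17A4.170 (HPODL_02758), the 19.3 kDa subunit that holds the last cluster before ubiquinone, had 592 FPKM in B medium against 56.0 with cysteine in wild-type cells, and 155 against 95.9 in mutant cells. In these 3 genes the mutant libraries lay between the wild-type ones. Their media differences were 2.64, 3.31 and 3.38 in wild-type cells, and 0.36, 0.73 and 0.68 in mutant cells.

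CI-23kD (HPODL_02101), the 23 kDa iron-sulfur subunit, had 810.25 FPKM in B medium against 123 with cysteine in wild-type cells, and 142 against 179 in mutant cells. Its media difference was 2.71 in the wild type and -0.34 in the mutant. Core subunit levels were even in the mutant in B medium, from 118 to 155 FPKM, a ratio of 1.31 between the highest and the lowest. The ratio was 3.20 in wild-type cells in B medium, 2.84 in wild-type cells given cysteine and 2.48 in mutant cells given cysteine.

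Of the 12 accessory subunits, 11 were higher in B medium by 2-fold or more in wild-type cells, against 23.6% of all genes. In mutant cells 1 was, against 13.3% of all genes. The medians of the 12 were 2.77 and 0.31. CIB22 (HPODL_05260, chromosome V, 916120 to 916488), the counterpart of NDUFB9 of the membrane arm, had 1684 FPKM in B medium against 78.7 with cysteine in wild-type cells, and 101 against 83.1 in mutant cells. It was high in 1 library only, and its media difference of 4.40 was the largest of the 25 in the wild type, against 0.27 in the mutant. Without the length trend its wild-type difference was 3.80. NDUFA12 (HPODL_02876), at the junction of the NADH-binding and ubiquinone modules, had 1733 FPKM in B medium against 152 with cysteine in wild-type cells, and 277 against 177 in mutant cells, differences of 3.50 and 0.64. The row nuo-40 (HPODL_03913), counterpart of NDUFA9 near the ubiquinone site, had 351 FPKM in B medium against 38.7 with cysteine in wild-type cells, and 77.5 against 68.6 in mutant cells (3.15 and 0.17).

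The shortest member, CI-9.5 (HPODL_05148, chromosome III, 400901 to 401166, 266 bases), a 9.5 kDa subunit, had 19515 FPKM in B medium against 2246 with cysteine in wild-type cells, and 571 against 402 in mutant cells. Both wild-type libraries stood above both mutant ones, and its media differences were 3.12 and 0.51. The next shortest, nuo-12.3 (HPODL_04828, 317 bases), a 12 kDa subunit, had 4519.9 FPKM in B medium against 551 with cysteine in wild-type cells, and 414 against 258 in mutant cells (3.03 and 0.68). Levels of the 19 subunits spanned a ratio of 77.0 in the wild type in B medium and 11.6 in the mutant in B medium. Among the 7 subunits of at least 600 bases the ratios were 4.22 and 6.72.

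Among rows described as 21 kDa subunits, nuo-21 of chromosome VII (HPODL_02906), counterpart of NDUFS4, had 1259 FPKM in B medium against 238 with cysteine in wild-type cells, and 179 against 104 in mutant cells (2.40 and 0.78). The row nuo-21 of chromosome III (HPODL_00687), matched to another protein of that size, had 1069 FPKM in B medium against 157 with cysteine in wild-type cells, and 521 against 219.7 in mutant cells. Its difference of 1.24 in the mutant was the only one past 2-fold there (2.76 in the wild type). 20H10.080 (HPODL_02157), a 21.3 kDa subunit, had 747 FPKM in B medium against 107 with cysteine in wild-type cells, and 162 against 218 in mutant cells (2.79 and -0.42).

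The remaining accessory subunits had smaller wild-type differences. They were 1.81 for nuo-14.8 (HPODL_02851), counterpart of NDUFA6, 1.51 for B1O14.280 (HPODL_04116), a 20.8 kDa subunit, and 1.43 for NDUFA13 (HPODL_04286), a subunit that crosses the membrane. The mutant differences of these 3 were 0.02, 0.34 and -0.51. NDUA5_ARATH (HPODL_00771), the counterpart of NDUFA5 in the peripheral arm, was the 1 subunit within 2-fold in the wild type. It had 1623 FPKM against 1368.5 in wild-type cells, and 895 against 1016 in mutant cells. Its differences were 0.25 and -0.18, and it had the highest level of the 19 subunits in both mutant libraries.

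**Figure D2:**
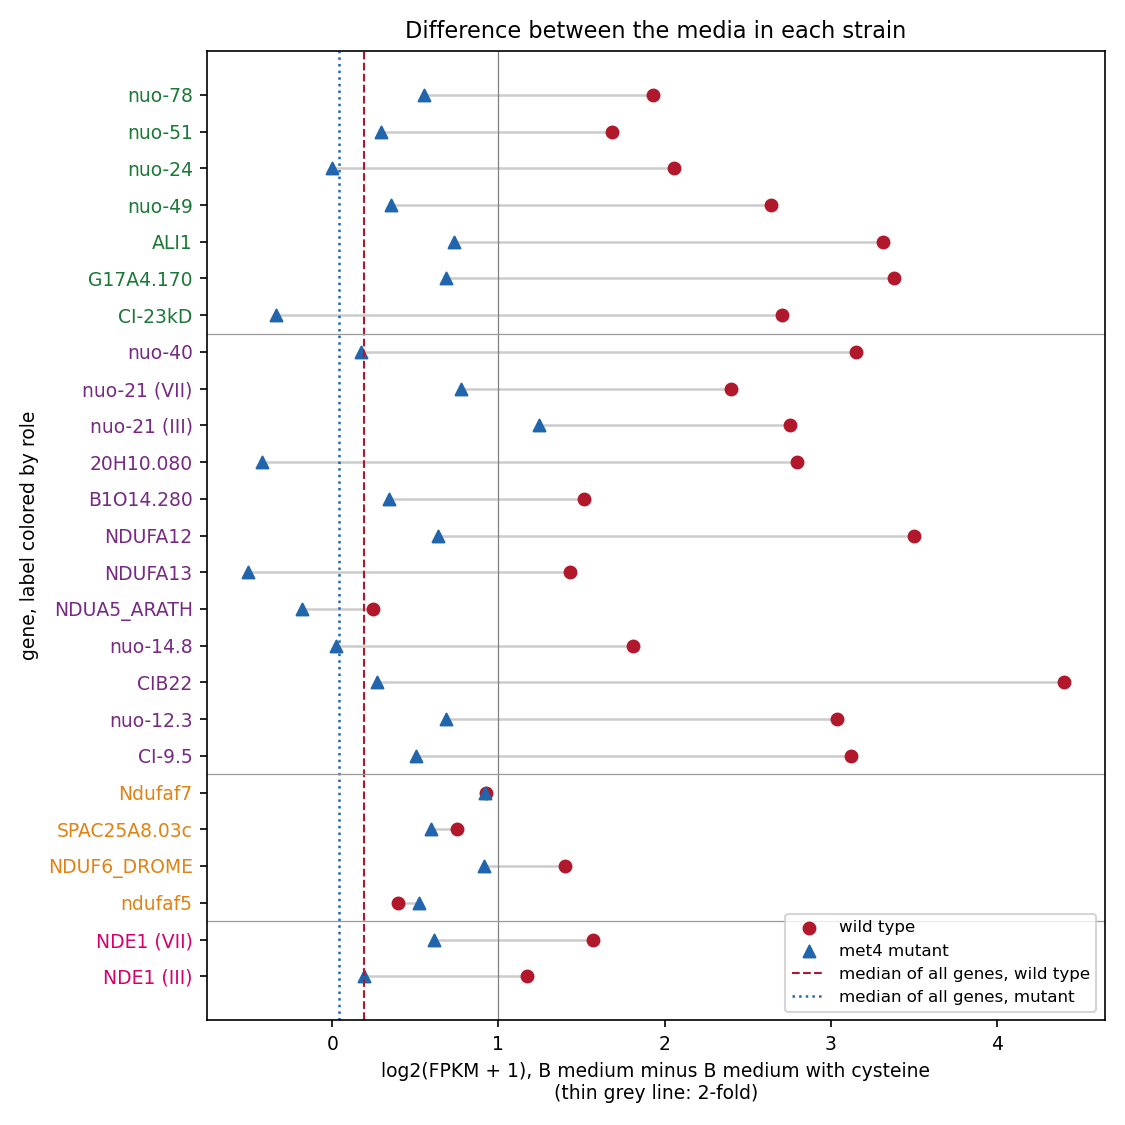
Difference of log2(FPKM + 1) between B medium and B medium with cysteine for each of the 25 genes, in the wild type (circles) and the mutant (triangles), with the medians of all genes as vertical lines at 0.19 and 0.04. Subunits reach 4.40 in the wild type, while all but nuo-21 of chromosome III lie left of the 2-fold line in the mutant. For each of the 4 assembly factors the markers of the strains lie less than 0.5 apart.

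The 4 assembly factors were expressed at lower levels than the subunits, with medians of 45.6 FPKM against 25.1 in wild-type cells, and 41.2 against 24.1 in mutant cells. Ndufaf7 (HPODL_01773), known in mammals as a methyltransferase that acts on the 49 kDa subunit, had 45.3 FPKM in B medium against 23.4 with cysteine in wild-type cells, and 41.7 against 21.6 in mutant cells. The libraries paired by medium, with differences of 0.93 and 0.92. Its second row, SPAC25A8.03c (HPODL_04822), had 45.9 FPKM in B medium against 26.9 with cysteine in wild-type cells, and 40.6 against 26.6 in mutant cells (0.75 and 0.60). NDUF6_DROME (HPODL_04700), the assembly factor 6 homolog, had 101 FPKM in B medium against 37.7 with cysteine in wild-type cells, and 71.1 against 37.2 in mutant cells. Its wild-type difference of 1.40 was past 2-fold, and that in the mutant was 0.91. The row ndufaf5 (HPODL_02047), known in mammals to modify the subunit that holds the last cluster, had 26.7 FPKM in B medium against 20.04 with cysteine in wild-type cells, and 18.96 against 12.9 in mutant cells (0.40 and 0.52). It overlaps alp1 on the other strand by 9 bases, so a few reads may be shared.

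Both alternative NADH dehydrogenases are described as NDE1, the enzyme that oxidises cytosolic NADH at the outer face of the inner membrane in budding yeast. NDE1 of chromosome VII (HPODL_02792, 732181 to 733794) had 148 FPKM in B medium against 49.2 with cysteine in wild-type cells, and 59.2 against 38.4 in mutant cells. NDE1 of chromosome III (HPODL_00256, 166360 to 168030) had 240.4 FPKM in B medium against 106 with cysteine in wild-type cells, and 181 against 158 in mutant cells. The row of chromosome III was the higher in every library, and the wild-type library in B medium was the highest for both. Their wild-type differences were 1.57 and 1.17, and their mutant ones 0.61 and 0.19. Rows that share a product can share reads, so the single values of the NDE1 pair and of the assembly factor 7 pair are uncertain.

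Another 6 rows are linked to complex I by name but carry other words in their descriptions, and they differed in direction. The row nuo-12 (HPODL_02246), an acyl carrier protein of the type bound by accessory subunits, had 1481 FPKM in B medium against 257 with cysteine in wild-type cells, and 252 against 138 in mutant cells. It was high in the wild-type library in B medium, like most subunits (2.52 and 0.86). The second acyl carrier protein row, ACP1 (HPODL_01821), had 727 FPKM in B medium against 1883 with cysteine in wild-type cells, and 803 against 2523 in mutant cells, and was the higher with cysteine in both strains (-1.37 and -1.65). Among the assembly genes, cia84 (HPODL_00140) had 43.5 FPKM in B medium against 9.68 with cysteine in wild-type cells, and 23.6 against 12.9 in mutant cells (2.06 and 0.83), and cia30 (HPODL_00955) differed by 0.67 and -0.07. The assembly factor NDUFAF2 (HPODL_04816) had 35.1 FPKM in B medium against 179 with cysteine in wild-type cells, and 9.07 against 66.3 in mutant cells (-2.32 and -2.74). IND1 (HPODL_04914), which delivers iron-sulfur clusters to complex I in Yarrowia, had 29.8 FPKM in B medium against 73.2 with cysteine in wild-type cells, and 10.6 against 35.8 in mutant cells (-1.27 and -1.66). Both stood lower in B medium in both strains.

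The comparison of the strains in B medium asks how the genes stand without the Met4-like locus when sulfur is short. All 25 genes were lower in mutant cells than in wild-type cells as deposited, 23 of them with median-of-ratios, upper-quartile or long-gene scaling and 16 with TPM scaling. The median of all genes was -0.27 as deposited, -0.02, 0.03 and -0.05 with these scalings in turn, and 0.87 with TPM scaling. The share of all genes below 0 was not counted. By 2-fold or more, 18 of the 25 genes were lower as deposited, against 24.9% of all genes, and none higher, against 10.5%. With TPM scaling 8 were lower by 2-fold or more, against 6.30% of all genes, and 1 higher, against 44.3%. Their median difference of log2(FPKM + 1), mutant minus wild type, was -1.61, and that of all genes was -0.27. This comparison shares the wild-type library in B medium with the media comparison above, so a high value in that library enters both. The size of the difference moved with gene length, among these genes and among all genes.

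The largest differences were those of the short genes, -5.09 for CI-9.5, -4.05 for CIB22, -3.45 for nuo-12.3 and -3.02 for nuo-14.8. These are the 4 members under 400 bases, with a median of -3.75, and the other 270 genes of that length had a median of -2.00, with 73.0% at least 2-fold lower. Of the 8 members of 400 to under 600 bases, 7 were at least 2-fold lower (median -1.95), against 41.1% and a median of -0.77 for the others. Of the 7 members of 1200 bases or more, nuo-49 (-1.61), NDE1 of chromosome VII (-1.31) and nuo-51 (-1.19) were at least 2-fold lower, against 17.1% of the others, with medians of -0.99 and -0.07. The longest member, nuo-78, stood at -0.99.

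With the length trend taken out (the running median of 100 genes on each side in order of length subtracted), 14 of the 25 remained past 2-fold lower, against 16% of all genes, and none was past 2-fold higher, against 15%. The median was -1.09. CI-9.5 was then at -2.58, CIB22 at -2.47, nuo-40 at -2.00, nuo-21 of chromosome VII at -1.93 and CI-23kD at -1.92. NDUA5_ARATH, at -0.86 as deposited, was at 0.40. The core subunits had a median of -1.61 as deposited and of -1.44 without the trend, and 6 and 5 of the 7 were at least 2-fold lower. The 4 assembly factors among the 25 genes were near the trend, from -0.30 to -0.03. The assembly genes outside the rule lay further below it, IND1 at -1.06, cia30 at -1.02, cia84 at -0.74 and NDUFAF2 at -0.72.

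**Figure D3:**
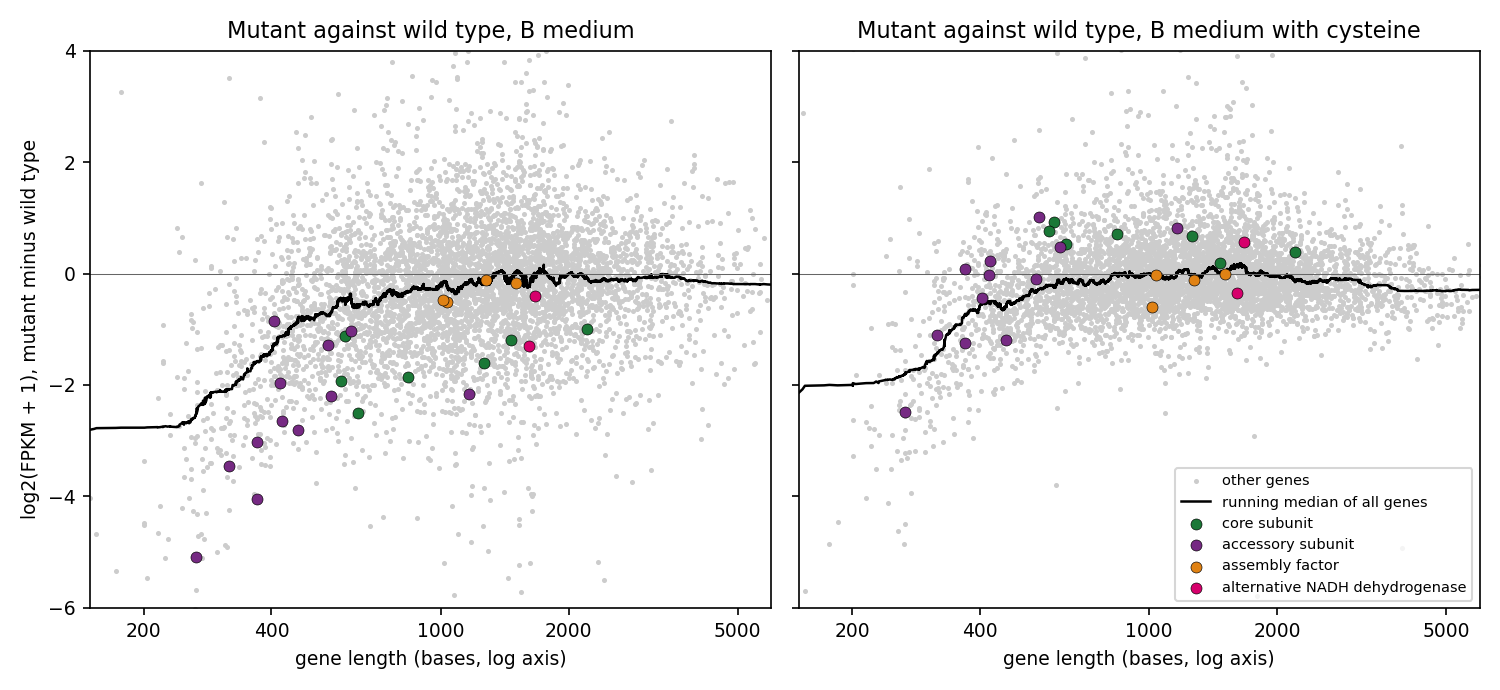
Difference of log2(FPKM + 1) between mutant and wild type against gene length (log axis) in B medium (left) and with cysteine (right), with other genes in grey and the running median over 100 genes on each side as a line. In B medium the subunits lie below the line except NDUA5_ARATH, and with cysteine they lie on either side of it. The axes leave out 62 genes on the left and 51 on the right, none of them among the 25.

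In the authors' deposited table, which marks genes at a threshold of 0.05 when a library of each strain is set against the other, CI-9.5 was marked in B medium, along with 12 other genes. It was also marked between the wild type in B medium and the mutant with cysteine, where 11 genes were. The other 24 genes carried no mark in any of the 4 pairings, and the marks covered 0.243%, 0.206%, 0.243% and 1.07% of the genes compared in the order of the table.

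With cysteine in the medium the strains were closer as deposited, but by the median of the 25 genes not with TPM scaling. That median was then 0.86 with cysteine and -0.42 in B medium, against 0.66 and 0.87 for all genes. As deposited, the median difference, mutant minus wild type, was 0.08 over the 25 genes and -0.10 over all genes. At least 2-fold lower in the mutant were 4 genes, against 7.41% of all genes, and 1 was at least 2-fold higher, against 6.85%. The lower ones were CI-9.5 (-2.48), nuo-14.8 (-1.24), nuo-21 of chromosome VII (-1.18) and nuo-12.3 (-1.09), and the higher one was 20H10.080 (1.02). All 4 lower genes are under 600 bases, and without the length trend none of them stayed past 2-fold, with CI-9.5 at -0.67 and nuo-12.3 at 0.35. With TPM scaling 1 was at least 2-fold lower, against 2.21% of all genes, and 11 were higher, against 27.7%. All 7 core subunits were higher in the mutant under every scaling tried, as deposited from 0.20 for nuo-51 to 0.93 for nuo-24, within 2-fold. The median of all genes was itself 0.66 with TPM scaling, and it lay from -0.10 to 0.08 as deposited and with the other scalings. The share of all genes above 0 was not counted. Without the trend the core subunits ran from 0.18 to 1.14. Of the 25 genes, 2 were then at least 2-fold higher (nuo-24 and 20H10.080), against 8.35% of all genes, and none lower, against 3.59%.

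The mutant's media difference minus that of the wild type was at least 2-fold lower in 18 of the 25 genes, against 22.2% of all genes, and at least 2-fold higher in none, against 11.2%. Its median was -1.79, and that of all genes was -0.20. All 18 were subunits, from -1.17 for B1O14.280 to -4.13 for CIB22. The exception among the subunits was NDUA5_ARATH at -0.43. Both NDE1 rows lay just inside 2-fold, at -0.96 and -0.98, and the 4 assembly factors among the 25 genes ran from -0.49 to 0.12. Of the assembly genes outside the rule, cia84 was at -1.23, cia30 at -0.74, NDUFAF2 at -0.42 and IND1 at -0.39. Without the length trend 17 of the 25 genes were at least 2-fold lower, against 16.1% of all genes, and none higher, against 15%. B1O14.280 was then at -0.75.

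The rest of the respiratory chain was read from lists of gene names and products. The list counts below are to be read beside the shares of all genes compared. For wild-type cells, 23.6% of all genes were at least 2-fold higher in B medium, with 13% lower. For mutant cells these shares were 13.3% and 12.1%. No list count was tested against them. Complex II, succinate dehydrogenase, which also reduces ubiquinone, was higher in B medium in both strains. Of its 6 genes 5 were at least 2-fold higher in the wild type (median 2.1) and 5 in the mutant (median 2.91). SDH4 (HPODL_02356), a membrane anchor, had the largest wild-type difference (3.30, and 3.96 in the mutant), and the assembly factor EMI5 the smallest (0.08 and 1.44). The mutant's difference was at least 2-fold smaller than the wild type's in 0 of 6 complex II genes and 18 of 19 complex I subunits, against 22.2% of all genes. It was at least 2-fold larger in 2 of the 6 and 0 of the 19, against 11.2% of all genes. The contrast between these lists was not tested.

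Complex III, which passes electrons from ubiquinol to cytochrome c, had 5 of 10 genes past 2-fold higher and 1 lower in wild-type B medium (median 1.02), and 2 higher and 1 lower in the mutant (0.65). It ran from QCR6 (2.14 in the wild type and 1.86 in the mutant) to CYT2 (-1.43 and -1.002), a heme lyase. Complex IV subunits, of cytochrome oxidase, had 4 of 6 higher and 1 lower in the wild type (1.52) and 2 higher and 1 lower in the mutant (0.66), from COX6 (2.00 and 1.29) to COX5A (-1.38 and -2.09). ATP synthase had 11 of 12 higher and 0 lower in the wild type (1.86), and 5 higher and 0 lower in the mutant (0.81). Its extremes were ATP14 (2.72 and 1.09) and the assembly factor FMC1 (-0.75 and -0.56). The mutant's difference was at least 2-fold smaller than the wild type's in 1 of 10 complex III, 2 of 6 complex IV and 4 of 12 ATP synthase genes, where 22.2% of all genes were. The medians of this difference were -0.47, -0.71 and -0.83, and without the length trend 0.02, -0.14 and -0.54.

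**Figure D4:**
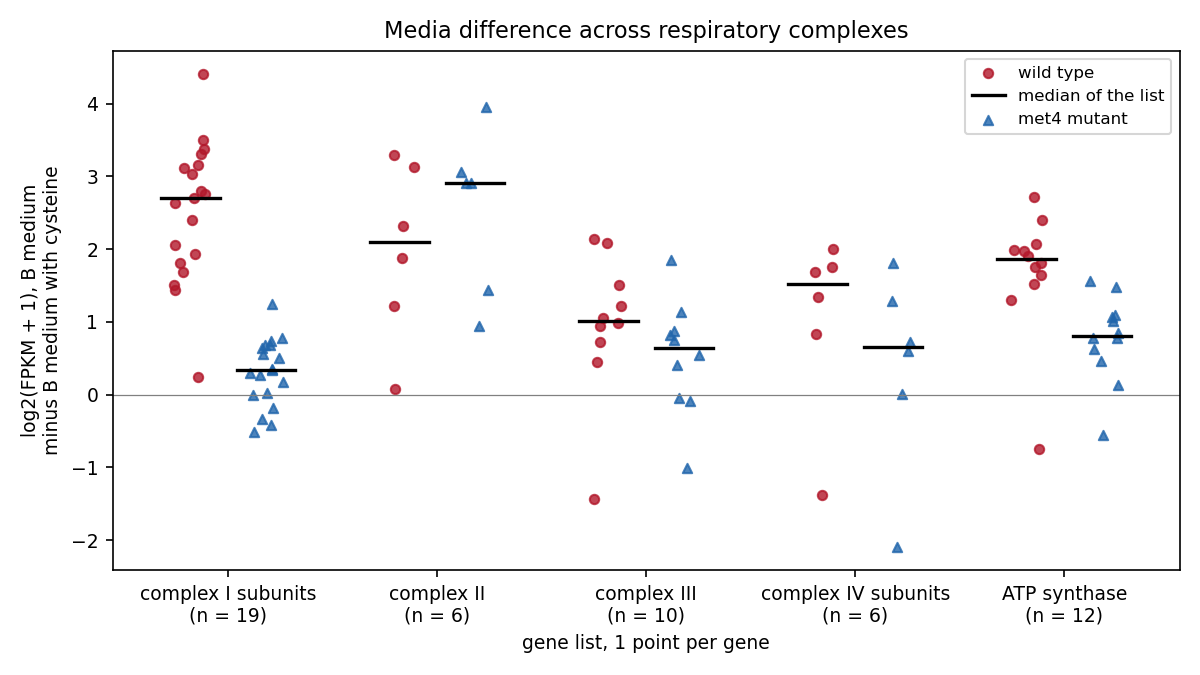
Difference of log2(FPKM + 1) between B medium and B medium with cysteine for complex I subunits and the other respiratory complexes, with 1 point per gene and bars at list medians. The complex I medians are 2.71 in the wild type and 0.34 in the mutant, and those of complex II are 2.1 and 2.91.

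The list of other routes into the ubiquinone pool, which leaves out complex II and NDE1, stayed within 2-fold between the media. None of the 5 genes of that list was past 2-fold in B medium in either strain (medians -0.23 and -0.06), from CIR2 (0.41 in the wild type) to ETFA (-0.76), both of electron transfer from flavoproteins. Ubiquinone synthesis had 3 of 10 genes higher and 3 lower in the wild type (median -0.26), and 2 higher and 5 lower in the mutant (-0.85). Its extremes in the wild type were CAT5 (2.24) and COQ3 (-1.56). The shares of all genes, higher and then lower, were 23.6% with 13% for wild-type cells, 13.3% with 12.1% for mutant cells. Iron-sulfur cluster assembly had 1 of 7 higher and 4 lower in the wild type (-1.25), and 2 higher and 2 lower in the mutant (-0.10). ISA1 was at 1.22 and YAH1, the ferredoxin of that pathway, at -3.03 in the wild type. The cytochrome c list, which shares CYT2 with that of complex III, had 0 of 6 higher and 2 lower in the wild type (-0.07), and 1 higher and 1 lower in the mutant (0.03). It holds both CYC8 rows, which are corepressors and not cytochromes, and one of these (HPODL_03190) had its highest wild-type difference (0.89). Past 2-fold in the mutant were the other CYC8 row (HPODL_01503, 1.52) and CYT2 (-1.002). CYC1, cytochrome c itself, was at -1.70 in the wild type and -0.93 in the mutant.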

How the data were processed

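RNA from 4 cultures was sequenced, 1 library per group. The FPKM values were made by the authors with TopHat, Cufflinks 2.1.1 and Cuffdiff, named without their roles per the submitters' processing notes. Build, annotation release and strand setting were not given in the sources used here. Deposited yes or no marks carry a threshold of 0.05 per the file headers. No source here says whether p-values were adjusted for it. FPKM keeps no depth, so counting error is unknown.

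All 5448 rows have a name and position, and 5372, the 25 members among them, have the same position in the RefSeq table (assembly Hansenula_2). Length runs from start to end with any introns. The 5342 genes that averaged 1 FPKM or more were compared as differences of log2(FPKM + 1), which understates changes of low genes. A 2-fold difference was counted, no test was made, and lists are described by counts and medians beside those of all genes. The procedure was tested on simulated data, with Python 3.11.15, numpy 2.4.6, pandas 2.3.3 and matplotlib 3.10.9.

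All members, the highest and lowest gene of each of 9 lists in the wild-type media comparison, zip1 and LEU2 were named by rule. The other rows of complex I outside the rule, HPODL_05198 and the CYC8 row HPODL_01503 were named after their values were seen. Members and lists were chosen with earlier results of these data known.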

Additional observations from a re-analysis of the deposited data

Results flagged for a closer look

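In 5 genes the libraries of the strains moved in opposite directions between the media as deposited. The share of all genes that did so was not counted, so the 5 cannot be set against it. With 1 library per group the difference between the strains was not tested. The set also moved with scaling. The row nuo-14.8 lay below 0 in the mutant with TPM or median-of-ratios scaling, and ndufaf5 lay below 0 in the wild type with TPM scaling. For 20H10.080 the media difference was 2.79 in the wild type and -0.42 in the mutant, so the mutant's minus the wild type's was -3.21. For CI-23kD it was 2.71 and -0.34, a difference of -3.04. For nuo-24 it was 2.06 and -0.0007, a difference of -2.06, where the mutant value is too near 0 to give a direction and lay above 0 with upper-quartile or long-gene scaling and without the length trend. For NDUFA13 it was 1.43 and -0.51, a difference of -1.94. For NDUA5_ARATH it was 0.25 and -0.18, a difference of -0.43, and both strains lay below 0 with TPM scaling (-0.23 and -0.26) and without the length trend (-0.16 and -0.06).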

How the results depend on the processing

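No paired analysis was possible because each group holds 1 library, and for the same reason no replicate could be left out. The members' median kept its sign in all 5 comparisons under the 8 alternatives that could move it (2 pseudocounts, 4 scalings, the length trend removed, and genes of at least 600 bases alone). Both filters kept all members, and the folds of 3 and 1.5 change counts only. TPM scaling shifts the median of all genes by -0.44 and -0.08 between the media, by 1.14 and 0.76 between the strains in B medium and with cysteine, and by 0.37 for the difference of responses. It gave the members' median its largest move in wild-type media (to 1.57) and in both strain comparisons. In the mutant's media the largest move was with long-gene scaling (to 0.61), and in the difference of responses without the length trend (to -1.32). Between the strains in B medium TPM scaling gave a median of -0.42, against 0.87 for all genes, with 8 members lower and 1 higher. There 9 members turned above 0, the 4 assembly factors from 0.64 to 1.02 (Ndufaf7 highest), NDE1 (III), NDUA5_ARATH, nuo-78, nuo-24 (0.060) and nuo-21 (III) (0.16). With cysteine it gave a median of 0.86, against 0.66 for all genes, with 11 higher and 1 lower. The other counts with cysteine, each with the share of all genes, were 2 higher (8.031%) with median-of-ratios scaling, 2 higher (9.34%) and 2 lower (4.998%) with upper-quartile scaling, 2 higher (8.35%) and 0 lower (3.59%) without the length trend (nuo-12.3 turned to 0.35), 0 higher (5.09%) at a pseudocount of 5 FPKM, 0 higher (2.83%) and 1 lower (2.85%) at a fold of 3, and 6 higher (14.2%) at a fold of 1.5. Among genes of at least 600 bases, which hold 13 members, 10 were higher in wild-type B medium (22.4%), 7 lower in the mutant in B medium (20.1%), 7 lower in the difference of responses (20.7%), and 0 higher (7.21%) and 0 lower (3.32%) with cysteine. In the mutant 3 were higher in B medium with scaling to those genes (15.4%), 0 at a fold of 3 (5.75%) and 10 at a fold of 1.5 (24.8%). The cause of these shifts was not tested. Depth is unknown and limits no value in a known way.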
